A study of Mus musculus with 2 samples.

Results

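The cells described here are CD45+ cells from tumors that held mRNA of 2 genes of cell division, and cycling means that this rule was met. They were taken from 2 scRNAseq libraries of live CD45+ cells, sorted from subcutaneous B16 melanoma tumors, and made with the 10x Genomics single cell 3' v2 chemistry. A cell barcode was counted as cycling if it held at least 1 UMI (1 UMI is 1 counted mRNA molecule) of Mki67, at least 1 of Top2a, at least 1 of Ptprc, the gene of CD45, and none of the melanoma genes Pmel, Mlana and Dct. Of 13040 barcodes that passed the cell filter, 142 were cycling by this rule. They were 84 of 7433 barcodes (1.13%, exact binomial 95% interval 0.902 to 1.40) in the h219-LLG library and 58 of 5607 (1.03%, 0.786 to 1.34) in the control library.

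Both libraries came from Vav-cre human LAIR1 transgenic, LAIR1-/- C57bl/6j mice, 6 to 8 weeks old, with 1 library for each antibody. The Vav-cre driver places human LAIR1, an inhibitory collagen receptor, on blood-forming cells and their descendants, and mouse LAIR1 was knocked out in both groups. h219-LLG is an antagonist antibody to human LAIR1 whose Fc part was mutated to remove effector function, and the other library is its isotype control. How many mice went into each library was not given in the sources used here. With 1 library per antibody no test between antibodies was possible, so differences are given as ratios with 95% intervals that cover counting error only. The libraries stand apart beyond the cycling cells: clustered together, 1 large B cell-like cluster held 1971 barcodes with h219-LLG and 437 with the control antibody and another held 303 and 1268, and 4 large T cell-like clusters were split in the same way. The human transgene is not among the genes counted, and mouse Lair1 gave 23 UMIs in 16 of 84 cycling cells with h219-LLG and 18 UMIs in 6 of 58 with the control antibody, although the reads come from the 3' end of the gene and the deleted part was not given. Of the other cell types a CD45 sort can carry over, the melanoma genes Tyr and Tyrp1 and the fibroblast gene Col1a1 had 0 UMIs in the 142 cells, and the hemoglobin gene Hba-a1 had 7 UMIs and 1 UMI.

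A dividing cell first copies its DNA in S phase and then, after a gap, separates the copies in G2 and mitosis. S phase depends on the MCM helicase, PCNA and enzymes that make DNA building blocks, and mitosis on cyclin B with Cdk1, the Aurora and Polo kinases and the kinetochore proteins that hold chromosomes to the spindle. Ki-67 (Mki67) coats mitotic chromosomes, and topoisomerase II alpha (Top2a) untangles the copied DNA. In tumors the lymphocytes that divide are mainly activated T and NK cells, regulatory T cells divide often, and some macrophages and dendritic cells divide in place. Most naive lymphocytes are at rest.

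The genes that set the rule lie at chr7:135689784-135716361 (Mki67), chr11:98992943-99024189 (Top2a) and chr1:138062861-138175708 (Ptprc), all on the minus strand of mm10 as annotated in GENCODE vM21. The promoters of both cycle genes are shown with those of Ccnb1, Ccnb2 and Mcm6, picked after the antibody ratios in T cells were seen. The B cyclins are among the highest ratios of the G2 and M list and Mcm6 among the lowest of the S phase list. They do not stand for their lists, since 18 of 22 measured S phase genes had ratios above 1. Whether promoter motifs go with the ratios was not tested. Each line holds the 200 bases before the start in RefSeq's GRCm38.p6 annotation, from 5' to 3' in the direction of the gene. Capitals mark 3 motifs known from cell cycle promoters, on either strand: the CHR element (TTTGAA or TTCGAA), the CCAAT box (CCAAT) and the E2F motif (TTCCCGC or TTGGCGC).
Mki67: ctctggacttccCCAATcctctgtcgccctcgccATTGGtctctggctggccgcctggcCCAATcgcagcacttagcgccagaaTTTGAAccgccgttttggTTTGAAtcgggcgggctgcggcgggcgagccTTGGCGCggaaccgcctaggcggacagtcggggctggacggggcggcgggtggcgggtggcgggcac
Top2a: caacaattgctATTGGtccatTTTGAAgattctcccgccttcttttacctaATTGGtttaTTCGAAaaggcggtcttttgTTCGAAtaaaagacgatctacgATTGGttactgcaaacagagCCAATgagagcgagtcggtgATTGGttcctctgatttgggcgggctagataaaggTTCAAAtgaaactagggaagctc
Ccnb1: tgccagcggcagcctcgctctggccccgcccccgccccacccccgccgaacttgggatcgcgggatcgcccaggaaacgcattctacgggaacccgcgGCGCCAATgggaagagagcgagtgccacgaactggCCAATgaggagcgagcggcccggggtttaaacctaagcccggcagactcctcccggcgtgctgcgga
Ccnb2: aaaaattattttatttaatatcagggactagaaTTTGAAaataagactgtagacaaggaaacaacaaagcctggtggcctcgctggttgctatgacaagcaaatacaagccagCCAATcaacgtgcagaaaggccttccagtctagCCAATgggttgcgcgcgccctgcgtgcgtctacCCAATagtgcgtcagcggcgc
Mcm6: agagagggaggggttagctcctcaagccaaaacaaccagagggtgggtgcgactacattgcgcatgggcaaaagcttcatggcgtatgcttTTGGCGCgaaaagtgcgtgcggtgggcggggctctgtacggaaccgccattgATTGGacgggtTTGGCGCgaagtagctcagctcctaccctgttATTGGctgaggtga

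Within the 250 bases before the start, CHR and CCAAT were both found before Mki67 and Top2a. In Ccnb1 an E2F match and a CCAAT box share letters. CCAAT was found in 26 of 35 promoters of the G2 and M list (74.3%) and 16 of 25 of the S phase list (64%), against 37.5% of 27025 promoters. CHR and CCAAT together were found in 12 of 35 G2 and M promoters (34.3%) and 4 of 25 S phase promoters (16%), against 7.0% of all promoters. E2F was found in 3 of 35 G2 and M promoters (8.57%) and 12 of 25 S phase promoters (48%), against 6.45% of all promoters. Among the 2043 promoters of genes measured in cycling T cells the shares were 40.4% for CCAAT, 7.0% for CHR with CCAAT and 14.9% for E2F, which is above the E2F share of the G2 and M list. A match is a run of letters and was not tested as a binding site.

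Since Mki67, Top2a and Ptprc chose the cells, their values are a description. The sum of Mki67 and Top2a UMIs per cell had a median of 11 and a maximum of 137 with h219-LLG, and a median of 5.5 and a maximum of 115 with the control antibody. At least 10 UMIs were found in 45 of 84 h219-LLG cells and 13 of 58 control cells. Just inside the rule, with exactly 2 UMIs, were 10 h219-LLG cells and 11 control cells. Just outside it were 128 and 134 cells with at least 2 UMIs of 1 gene and none of the other, 387 and 286 cells with 1 UMI in all, 5 and 3 cells without a Ptprc UMI, and 14 and 7 cells with a melanoma UMI. Ptprc made up 770.4 CPM (UMIs per 1000000 UMIs summed over the cells) in the cycling cells with h219-LLG and 960.1 CPM with the control antibody, against 1179 and 1180.0 CPM in resting cells, the Ptprc-positive cells with 0 UMIs of both cycle genes.

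The cycling cells were large libraries. They held a median of 21244.5 UMIs and 4228.5 genes with h219-LLG and 14463.5 UMIs and 3446.5 genes with the control antibody, while resting cells held 5094.5 UMIs and 1602 genes, and 5852 UMIs and 1745 genes. A deeper cell passes a UMI rule more easily, so shares are given a second time after every cell was thinned at random to 2000 UMIs. A doublet score marked 18 of 84 cycling cells (21.4%) in the h219-LLG library and 6 of 58 (10.3%) in the control library, against 5.95% and 4.49% of all kept barcodes. These cells were kept, and no cycling barcode was among the 13 barcodes that the libraries share.

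By number, T cells were the main identified lineage among the cycling cells, followed by mononuclear phagocytes, the monocytes, macrophages and dendritic cells. A cell took the lineage with the most distinct marker genes detected, if it had at least 2 and every other lineage had at most 0.5 times as many, and was otherwise called mixed or unassigned. T cells, marked by the CD3 chains, CD5 and CD6, made up 27 of 84 cycling cells (32.1%, 22.4 to 43.2) with h219-LLG and 27 of 58 (46.6%, 33.3 to 60.1) with the control antibody. Among all Ptprc-positive cells without melanoma UMIs, T cells were 46.3% and 46.0%, so their number among the cycling cells was not above that background. Mononuclear phagocytes made up 16 cells (19%) and 7 cells (12.1%), against 8.52% and 5.72% of all Ptprc-positive cells. The background was 1.39% and 3.08% for NK cells, 30.2% and 29.9% for B cells, and 10.1% and 11.1% for mixed cells. NK cells, marked by Ncr1 and Klrb1c, made up 2 (2.38%) and 7 (12.1%), and B cells, marked by Cd79a and Ms4a1, 5 (5.95%) and 1 (1.72%). There was 1 plasma cell and 1 unassigned cell, both with h219-LLG. The remaining 32 (38.1%, 27.7 to 49.3) and 16 (27.6%, 16.7 to 40.9) cells were mixed.

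**Figure D1:**
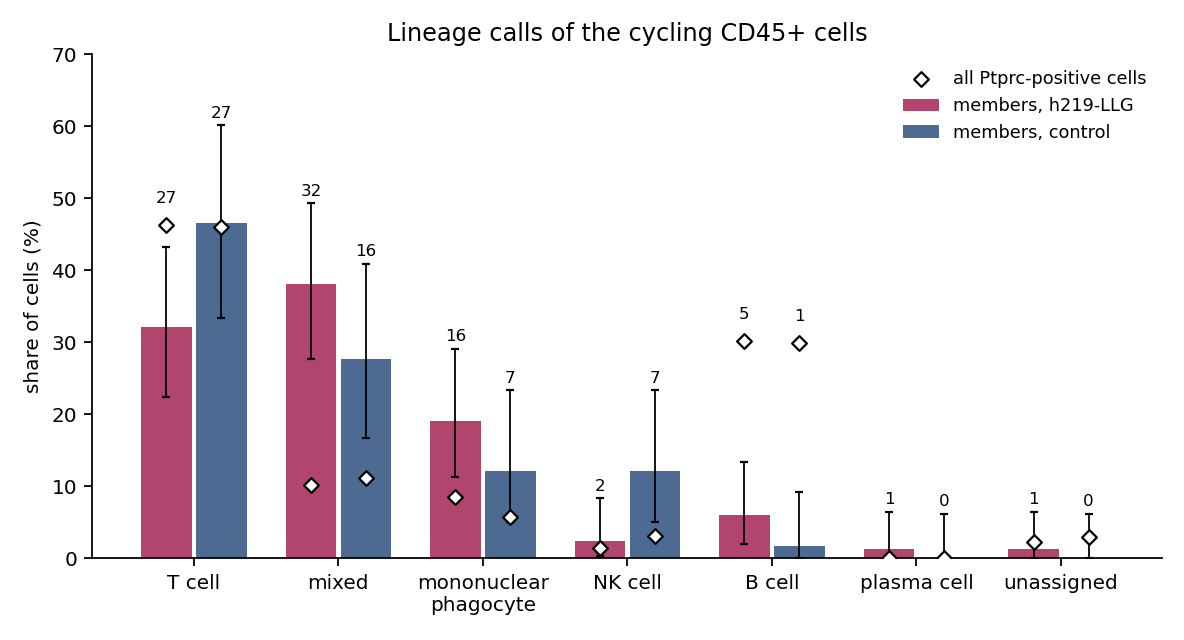
Share of the cycling cells of each library (%, bars, with exact binomial 95% intervals, number of cells above) by lineage, h219-LLG left of control; diamonds give the share of the same lineage among all Ptprc-positive cells without melanoma UMIs. B cells are about 30% of all cells and 5.95% and 1.72% of the cycling ones. Mixed cells lie far above their diamonds at full depth.

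The share of a lineage that met the cycling rule was, of the lineages with any such cell, lowest in B cells and next lowest in T cells with both antibodies. T cells cycled in 27 of 3130 cells (0.863%, 0.569 to 1.25) with h219-LLG and 27 of 2299 (1.17%, 0.775 to 1.70) with the control antibody. The ratio of the shares was 0.735 with an interval of 0.432 to 1.25, which includes 1. After thinning it was 1.78 (0.628 to 5.05), from 12 of 3086 cells (0.389%) and 5 of 2289 (0.218%), and that interval includes 1 as well. No difference between the antibodies was detectable at either depth. Mononuclear phagocytes cycled in 16 of 576 cells (2.78%, 1.60 to 4.47) and 7 of 286 (2.45%, 0.990 to 4.98), a ratio of 1.13 (0.472 to 2.73). NK cells cycled in 2 of 94 (2.13%) and 7 of 154 (4.55%), a ratio of 0.468 (0.0993 to 2.21). B cells cycled in 5 of 2041 (0.245%) and 1 of 1498 (0.0668%).

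Within a library, phagocytes met the rule more often than T cells at full depth. The share was 3.22 times as high (1.75 to 5.94) with h219-LLG and 2.08 times (0.916 to 4.74, which includes 1) with the control antibody. Phagocytes had 12 markers and T cells 5. A barcode with many phagocyte markers could thus hold T cell markers without being called mixed. The cycling h219-LLG phagocytes with 75677, 52139 and 58195 UMIs held 40, 24 and 16 UMIs of T cell markers. The median was 0 in cycling phagocytes of both libraries and 24 in cycling T cells. With lineages read from clusters the ratios were 3.86 (2.50 to 5.94) and 3.56 (2.06 to 6.18). The cluster reading has no mixed class, so mixed barcodes fall into a lineage. It counted 38 and 20 cycling phagocytes, 12 and 4 of them marked as doublets, against 16 and 7 by markers with none marked. Thinned to 2000 UMIs, 2 of 560 (0.357%) and 1 of 277 (0.361%) phagocytes passed, and the ratio to T cells was 0.918 (0.206 to 4.09) with h219-LLG and 1.65 (0.194 to 14.1) with the control antibody, so no order could be read at that depth. B cells cycled less often than T cells, at 0.284 times the T cell share (0.110 to 0.736) with h219-LLG and 0.0568 times (0.00773 to 0.418) with the control antibody. B cells were also shallower than T cells, at a median of 3584 and 4280 UMIs against 5784.5 and 6891, and after thinning 0 of 1982 and 1 of 1481 B cells passed, a control ratio of 0.309 (0.0361 to 2.64). Neutrophils, which divide in the marrow before they leave it, had 0 of 59 and 0 of 21 cells that met the rule, which allows up to 5.08% and 14.3% to meet it. Plasmacytoid dendritic cells had 0 of 20 and 0 of 37, which allows up to 15.0% and 8.11%. These limits are on cells with the UMIs the rule asks for, and neutrophils were shallow, at a median of 2920 and 4090 UMIs.

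**Figure D2:**
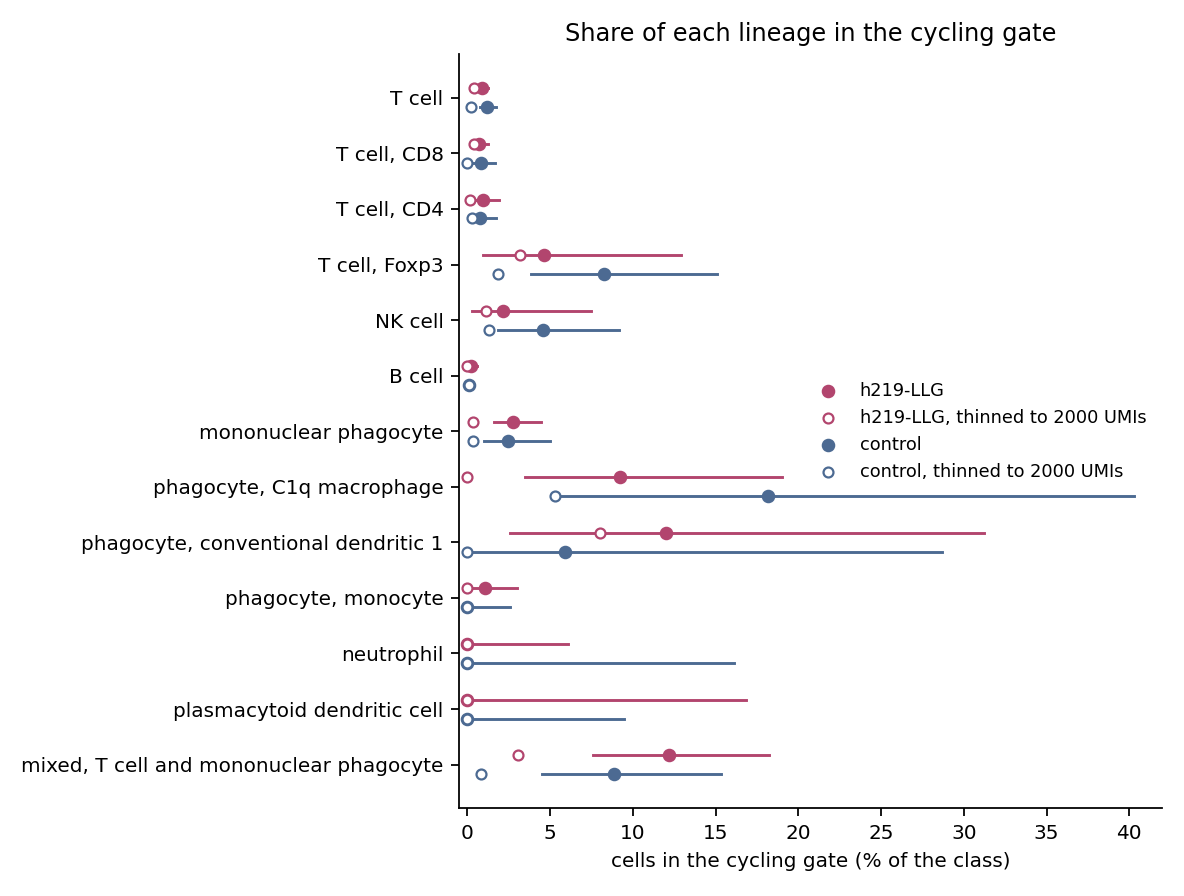
Percent of each class that met the cycling rule (filled points, lines are exact binomial 95% intervals), h219-LLG above control; open points give the percent after thinning every cell to 2000 UMIs. Foxp3 T cells, C1q macrophages and T cell and phagocyte mixtures lie above T cells as a whole, and most open points lie left of the filled ones.

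T cells with a UMI of Foxp3, the transcription factor of regulatory T cells, met the cycling rule more often than other T cells in both libraries at full depth. The share was 8.45 times as high (3.28 to 21.8) with h219-LLG and 11.3 times (5.35 to 23.8) with the control antibody. After thinning, with Foxp3 read before it, the ratios were 12.5 (3.46 to 45.4) and 11 (1.85 to 65.2). With Foxp3 also read from the thinned cells, 0 of 40 Foxp3 T cells (up to 7.5%) passed with h219-LLG against 9 of 2415 other T cells (0.373%), and 1 of 68 against 4 of 1669 with the control antibody, a ratio of 6.14 (0.695 to 54.2). The higher share was therefore not detectable when Foxp3 and the cycle genes were read from the same 2000 UMIs. Foxp3 T cells without a CD8 UMI cycled in 3 of 65 (4.62%, 0.962 to 12.9) and 9 of 109 cells (8.26%, 3.85 to 15.1). CD8 T cells cycled in 11 of 1563 (0.704%) and 7 of 872 (0.803%), and CD4 T cells without Foxp3 in 7 of 751 (0.932%) and 5 of 669 (0.747%). A Foxp3 UMI was found in 5 of 27 cycling T cells (18.5%) with h219-LLG and 11 of 27 (40.7%) with the control antibody. Among resting T cells the share was 2.16% and 4.35%, and in B cells, which do not use the gene, 0.490% and 0.467%, at median depths of 5747 and 6839 UMIs in resting T cells and 3584 and 4280 UMIs in B cells. Foxp3 amounted to 40.8 CPM in cycling T cells against 9.49 CPM in resting T cells with h219-LLG, and to 140.0 against 16.6 CPM with the control antibody.

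All cells were also clustered without the listed cell cycle genes. Other cycle genes, such as Ncapg2, were allowed, and their part in the clusters was not tested. The largest number of the cycling cells of each library lay in 1 small T cell-like cluster. It was led by Ikzf2, Ctla4, Tnfrsf4 and Tnfrsf18, genes of regulatory and activated T cells. It held 32 cycling cells among 128 (25%) in the h219-LLG library and 24 among 215 (11.2%) in the control library. Of these, 19 and 18 were called T cells by their own markers, 9 and 4 were mixed, 3 and 1 were B cells and 1 and 1 were NK cells. The 2 large B cell-like clusters held no cycling cell, and the 4 large T cell-like clusters led by genes such as Lef1 and Satb1 held 2 with h219-LLG and 3 with the control antibody.

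The cycling phagocytes carried more complement C1q mRNA and less monocyte mRNA than the resting ones. C1qa, a chain of complement C1q made by tissue macrophages, reached 668.6 CPM against 304.3 CPM in resting phagocytes with h219-LLG, and 636.1 against 103.4 CPM with the control antibody. C1qb was at 874.9 against 426.4 CPM and at 620.8 against 214.3 CPM. Ly6c2, a surface marker of classical monocytes, was at 309.5 against 638.2 CPM with h219-LLG, and at 1 UMI (7.66 CPM) against 412.8 CPM with the control antibody. Vcan, a matrix proteoglycan of monocytes, was at 20.6 against 208.8 CPM and at 76.6 against 366.5 CPM. Spp1 (osteopontin) was at 84.6 against 903.6 CPM and at 252.9 against 565.9 CPM, and Arg1 (arginase) was at 49.5 against 320.3 CPM with h219-LLG and at 0 UMIs in the 7 control cells.

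By these markers, C1q macrophages supplied 6 of 16 cycling phagocytes with h219-LLG and 4 of 7 with the control antibody, and 9.23% (3.46 to 19) of 65 and 18.2% (5.19 to 40.3) of 22 C1q macrophages cycled. Thinned to 2000 UMIs, 0 of 60 and 1 of 19 of them passed. Conventional dendritic cells type 1, which present antigen to CD8 T cells, supplied 3 of 25 cells (12.0%) and 1 of 17 (5.88%). Their markers Clec9a and Xcr1 were at 55.7 and 47.5 CPM in cycling phagocytes against 12.4 and 13.0 CPM in resting ones with h219-LLG, and at 46.0 and 23.0 against 8.30 and 4.49 CPM with the control antibody. Monocytes supplied 3 of 290 (1.03%) and 0 of 142, which allows up to 2.11%. The median sum of Mki67 and Top2a was 17.5 UMIs in the 16 h219-LLG phagocytes and 4 UMIs in the 7 control phagocytes, at median depths of 24479.5 and 10974 UMIs.

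The cycling NK and B cells were few. NK cells kept Ncr1, the receptor NKp46, in 2 of 2 cells with h219-LLG and 6 of 7 with the control antibody, with 0 UMIs of Cd3e. The T cell markers together had a median of 0 UMIs per NK cell with h219-LLG and 1 with the control antibody. The highest control NK cell held 10. Their mRNA of the killing protease Gzma was at 474.9 CPM against 7438 CPM in resting NK cells with h219-LLG, and at 3278 against 6125 CPM with the control antibody. The chemokine Ccl5 was at 712.3 against 12140.4 CPM and at 1495 against 11045 CPM. The h219-LLG values of cycling NK cells rest on 2 cells. In each library 1 cycling NK cell lay in the small T cell-like cluster. With lineages read from clusters, 1 of 130 and 6 of 227 NK cells cycled. Among the B cells Jchain, the antibody joining chain, gave 8 UMIs in 2 of 5 cells with h219-LLG and 1 UMI in the control cell. The B cell marker Cd79a was at 466.5 CPM in the 5 h219-LLG cells against 1782 CPM in resting B cells. The doublet score marked 2 of these 5 cells. As given above, 3 of the h219-LLG cells and the control cell lay in the small T cell-like cluster. With lineages read from clusters, 2 of 2170 and 0 of 1573 B cells cycled, and both of the 2 were marked as doublets. The B cell calls are therefore uncertain.

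Mixed cells were mostly barcodes with T cell and phagocyte markers together. There were 20 such cells with h219-LLG and 11 with the control antibody, which is 12.2% (7.61 to 18.2) of 164 and 8.87% (4.51 to 15.3) of 124 barcodes with this mixture. Cd3d, a CD3 chain, was found in 20 of 20 and 11 of 11 of them and Lyz2, the lysozyme of phagocytes, in 19 of 20 and 10 of 11, against 5.98% and 2.74% of B cells for Cd3d and 9.31% and 4.87% for Lyz2. The median depth of these mixtures was 33563.5 and 26156 UMIs, against 3584 and 4280 UMIs in the B cells, so the percents are not at like depth. Mixed calls of all kinds fell with depth. With lineages read after thinning, 3 of 298 and 0 of 180 mixed cells passed the rule. With lineages read before thinning, 5 of 676 and 2 of 555 did. Foxp3 UMIs were present in 8 and 3 of the T cell and phagocyte mixtures and Cd8b1 UMIs in 13 and 4. The doublet score marked 9 of 20 and 2 of 11. Whether these barcodes hold 2 cells was not tested further, and a mixed barcode does not tell which of its lineages divided.

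**Figure D3:**
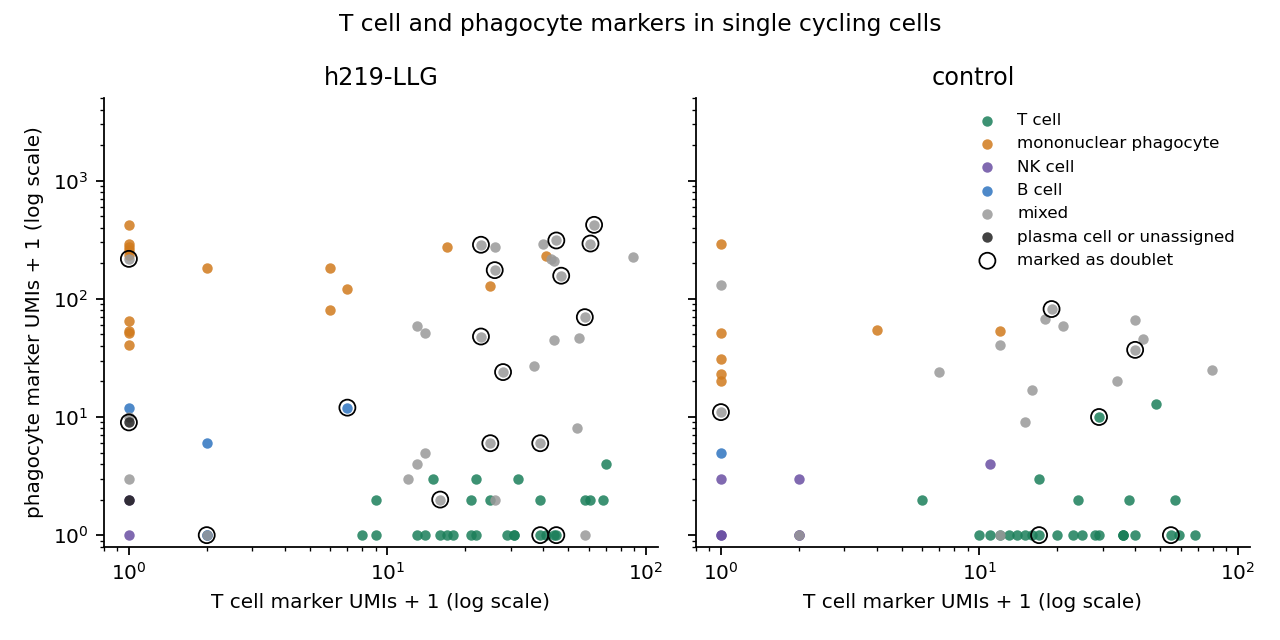
UMIs of the T cell markers (horizontal, plus 1, log scale) and of the mononuclear phagocyte markers (vertical, plus 1, log scale) in each cycling cell, colored by lineage call, h219-LLG left and control right; circles are barcodes marked by the doublet score. Gray points in the upper right carry both sets of markers, and 13 of 32 mixed cells with h219-LLG and 3 of 16 with the control antibody are circled.

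Summed over the cells, Mki67 and Top2a came with the wider division program, though not in every cell. The G2 and M list, which leaves out the gate genes, summed to 6758 CPM in cycling cells against 791.1 CPM in resting cells with h219-LLG, and 4453 against 840.0 CPM with the control antibody. The S phase list summed to 2730.3 against 464.1 CPM and 2193 against 512.5 CPM. More UMIs of G2 and M genes than of S phase genes were found in 71 of 84 and 42 of 58 cells. The median share of a cell's UMIs in G2 and M genes was 0.614% with h219-LLG and 0.221% with the control antibody. The lowest shares were 0.0425% and 0.0459%, below the level of the summed resting cells. At least 10 distinct G2 and M genes were detected in 57 of 84 and 34 of 58 cycling cells. A further 19 and 13 Ptprc-positive cells outside the rule reached the same number, of which 16 and 12 held a UMI of Mki67 or Top2a and 3 and 1 held neither.

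**Figure D4:**
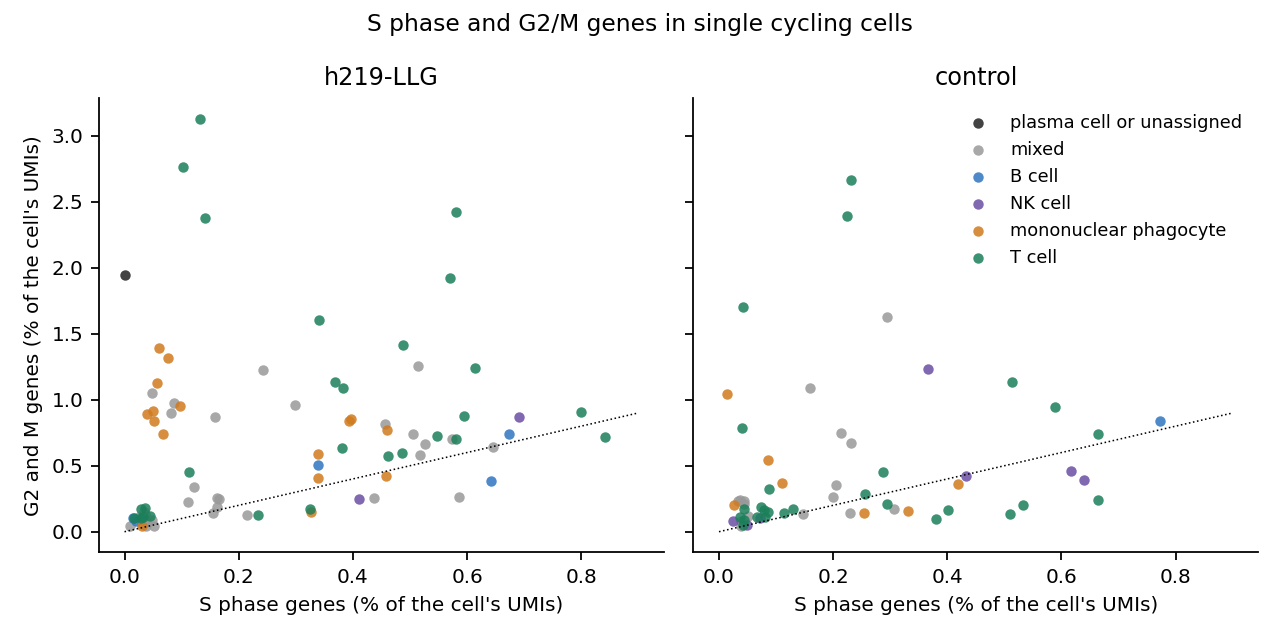
S phase genes (horizontal, % of the cell's UMIs) and G2 and M genes (vertical, % of the cell's UMIs) in each cycling cell, colored by lineage call, h219-LLG left and control right; the dotted line marks equal shares. Points near the origin are cells with few cycle genes beyond the gate, and in T cells the G2 and M share reaches 3.13% with h219-LLG and 2.66% with the control antibody.

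Only T cells reached 20 cycling cells in each library, so cycling and resting cells were compared gene by gene in T cells alone. The 27 and 27 cycling T cells held 514240 and 399971 UMIs, set beside 2867 and 2045 resting T cells. Of 8658 genes with at least 50 UMIs over the cells compared in each library, 736 (8.5%) were at least 2-fold higher in cycling T cells in both libraries and 145 (1.67%) were at least 2-fold lower in both. With intervals that excluded 1 in both libraries they were 634 (7.32%) and 115 (1.33%). Because the cells were chosen by 2 cycle genes, cycle genes had to be higher, and the counts are given as a description. Among the lists, 23 of 26 measured S phase genes and 14 of 18 measured G2 and M genes were higher and none lower, of 31 and 41 listed genes in the files. A cycle gene passes the minimum mainly through its UMIs in cycling cells. When each sum was rescaled by the median ratio over genes, 494 genes were higher and 250 lower, and the G2 and M count became 13.

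The steepest listed genes were those with nearly no UMIs at rest. Birc5 (survivin, of the chromosomal passenger complex) was at 336.4 CPM in cycling T cells against 0.766 CPM in resting ones with h219-LLG, a ratio of 439 (250.1 to 841), and at 112.5 against 0.416 CPM with the control antibody, a ratio of 271 (115 to 776). Nusap1, a spindle protein, had ratios of 443 and 87.9. Of the S phase genes, Rrm2, a subunit of the enzyme that makes deoxynucleotides, had ratios of 104 and 41.2, and Uhrf1, which keeps DNA methylation through replication, 77.0 and 33.7. The lowest were Smc4, a condensin subunit, at 1.42 and 1.18, and Cdt1, a licensing factor, at 2.19 and 1.94. Outside the lists the highest were 2810417H13Rik (RefSeq symbol Pclaf, a PCNA-binding protein) with 390 UMIs against 7 in all resting T cells with h219-LLG and 140 against 3 with the control antibody, the histone genes Hist1h3c, Hist1h2ae and Hist1h2ap, and the condensin II gene Ncapg2. The histone genes are near-identical copies, so their counts may be shared among them.

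All 11 genes of the chromatin and tubulin list were at least 2-fold higher in cycling T cells in both libraries, led by Stmn1 (stathmin, a microtubule destabilizer) at ratios of 53.5 and 20.2 and closed by Ptma (prothymosin) at 3.24 and 2.12. Of 15 measured genes of nucleotide synthesis, 8 were higher, led by Dut, which removes dUTP, at 10.6 and 7.75. Of 12 glycolysis genes, 9 were higher, led by Tpi1 at 6.35 and 7.26. Cdk2, Cdk4, Cdk6 and the CDK inhibitor Cdkn2c (16.5 and 4.95) were higher, and the CDK inhibitor Cdkn1a was lower at 0.400 and 0.482, out of 11 cycle entry genes.

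Genes of resting and recirculating T cells were lower. Of 12 genes of the quiescence and homing list, 5 were at least 2-fold lower in cycling T cells in both libraries and none higher. Foxp1, a keeper of quiescence, was at 105.0 against 484.7 CPM with h219-LLG (ratio 0.217) and at 185.0 against 468.1 CPM with the control antibody (0.395). S1pr1, the receptor for leaving lymphoid tissue, was at 0.252 and 0.311, Klf2, its activator, at 0.257 and 0.407, and the antiproliferative gene Btg1 at 0.263 and 0.443. Outside the lists Ly6c1, a surface antigen, had 0 UMIs and 1 UMI in cycling T cells against 795 and 733 in resting ones, and the transcription factor Sox4 had 0 and 0 against 329 and 235.

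Activation genes were higher in part. The costimulatory receptor Tnfrsf4 (OX40) was at ratios of 2.57 and 5.59, the IL-2 receptor chain Il2rb at 3.57 and 2.19 and the adhesion receptor Cd44 at 3.22 and 2.54, which were 3 of 8 measured genes. In the killing list 1 of 9 was higher, the protease Gzmb at 5.42 and 3.07. In the checkpoint list Tnfrsf9 (4-1BB), at 3.36 and 7.12, and Cd160, at 3.47 and 6.11, were higher, 2 of 5 measured genes. When each gene was read without its highest cell, Tnfrsf9 and Tnfrsf4 with h219-LLG were at 1.93 and 1.85. MHC class II genes were higher in 4 of 5, with Cd74 at 5.26 and 5.29. A fraction of 0.901 of the H2-Ab1 UMIs and 0.816 of the Cd74 UMIs that cycling T cells had in one of the libraries came from 1 cell. These are also genes of phagocytes and B cells, whose part in these values was not tested. None of 13 interferon-stimulated genes, 12 heat shock and immediate early genes and 5 genes of LAIR1 signaling was at least 2-fold higher or lower in both libraries.

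Between the antibodies, the cycling T cells of the h219-LLG library held more mRNA of G2 and M genes. Of 2634 genes with at least 50 UMIs over both libraries, 120 (4.56%) were at least 2-fold higher with h219-LLG with an interval that excluded 1, and 113 (4.29%) were at least 2-fold lower. All 24 measured genes of the G2 and M list, of 41 in the files, had ratios above 1, 19 of them at least 2-fold higher. Their median log2 ratio was 1.36, beside 0.10 over all 2634 genes. A gene can pass the minimum mainly through its UMIs with h219-LLG, so these counts are given as a description. Summed over the whole list without a minimum, G2 and M genes made up 9709 CPM with h219-LLG and 4408 CPM with the control antibody. The gate genes themselves had ratios of 2.73 for Mki67 (845.9 CPM with h219-LLG and 310.0 CPM with the control antibody) and below 2 for Top2a (667.0 and 340.0 CPM). Their sum had a median of 20 UMIs per cell (2 to 137) with h219-LLG and 6 (2 to 43) with the control antibody.

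Ccnb1, cyclin B1, was at 56 UMIs in 10 cells with h219-LLG (108.9 CPM) and 7 UMIs in 4 cells with the control antibody (17.5 CPM), a ratio of 6.22 (2.83 to 16.2). Ccnb2, cyclin B2, was at 171.1 and 40.0 CPM, a ratio of 4.28 (2.49 to 7.81), and Cdca3, which helps trigger mitotic entry, at 157.5 and 35.0 CPM, a ratio of 4.50 (2.53 to 8.60). The smallest ratios of the list were Smc4 at 1.25 (1.00 to 1.57) and Cks2, a subunit that binds Cdk1, at 1.29 (0.997 to 1.69).

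Of the S phase genes fewer passed 2-fold. Of 22 measured, 18 had ratios above 1 and 2 were at least 2-fold higher, Uhrf1 at 2.33 (1.51 to 3.72) and Rrm2 at 2.07 (1.36 to 3.21), with a median log2 ratio of 0.51. Mcm6, a subunit of the MCM helicase whose promoter is shown above, was at 186.7 CPM with h219-LLG and 215.0 CPM with the control antibody, a ratio of 0.868 (0.642 to 1.18), and Prim1, a primase subunit, was also at 0.868 (0.493 to 1.53). The median number of distinct genes detected per cycling T cell was 22 and 9 for G2 and M and 22 and 9 for S phase, and the median share of a cell's UMIs in S phase genes was 0.369% and 0.130%. Whether the lists differ from each other was not tested. All 11 chromatin and tubulin genes had ratios above 1 and none was 2-fold higher. All 8 measured nucleotide genes were above 1, with Shmt2, a serine hydroxymethyltransferase, at 2.18 and Impdh2, an enzyme of guanine nucleotide synthesis, at 2.07 past 2-fold. Glycolysis genes were above 1 in 4 of 9, with Eno1 at 1.78 and Tpi1 at 0.731, and none passed 2-fold.

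**Figure D5:**
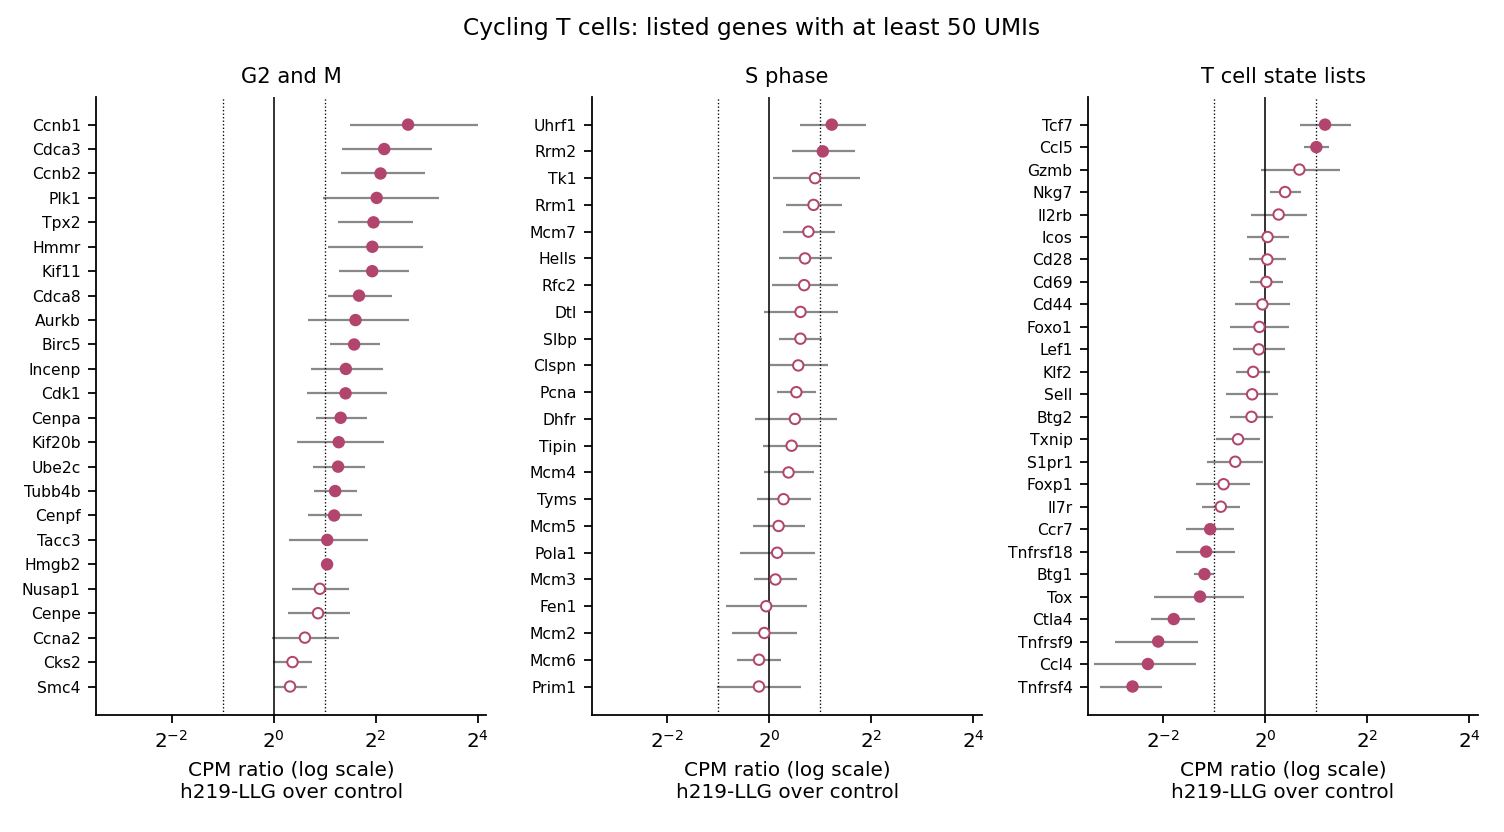
Ratio of CPM in cycling T cells, h219-LLG over control (log scale, lines are 95% counting intervals), for the G2 and M list, the S phase list and 4 T cell state lists; filled points are at least 2-fold with an interval that excludes 1, solid and dotted lines mark equality and 2-fold. All 24 measured G2 and M genes lie right of equality, while Tnfrsf4, Ccl4, Tnfrsf9 and Ctla4 lie farthest left.

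The G2 and M difference was present in several subsets of the T cells, all chosen after the data were seen. The minimum of 50 UMIs held in each subset, so the counts of genes above 1 are again a description. In CD8 T cells without Cd4 or Foxp3 UMIs, 11 with h219-LLG and 7 with the control antibody, all 16 measured G2 and M genes had ratios above 1, with a median log2 ratio of 2.99. Without the Foxp3 T cells, 22 and 16 cells remained, and all 21 measured genes were above 1, with a median of 1.64. Among T cells with at least 4 gate UMIs, 23 and 19 cells, all 24 were above 1, 16 at least 2-fold, with a median of 1.25. With every cell weighted equally the median was 1.20. The 2 deepest h219-LLG cells, both CD8 T cells with 72541 and 65138 UMIs, supplied 26.8% of the summed UMIs, and the 2 deepest control cells 16.5%. These h219-LLG cells belong to the 11 CD8 T cells above, whose median depth was 17458 UMIs, so they weigh more in that subset. Of the 7 control CD8 T cells, 2 were marked by the doublet score. The control CD8 T cells held 1 to 11 Mki67 UMIs and 1 to 9 Top2a UMIs each. The h219-LLG ones held 1 to 62 and 2 to 75, so more of the control cells lay near the edge of the rule. Whether the G2 and M ratios follow the gate UMIs was not tested. After thinning, 6 of 1559 and 0 of 870 CD8 T cells passed the rule.

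Genes of T cell state were lower in part with h219-LLG. All 3 measured checkpoint genes were at least 2-fold lower with h219-LLG. Tnfrsf9 was at 35.0 CPM with h219-LLG and 150.0 CPM with the control antibody (ratio 0.233, 0.130 to 0.401), Ctla4, the inhibitory CD28 relative, at 122.5 and 425.0 CPM (0.288, 0.212 to 0.387), and Tox, a factor of chronically stimulated T cells, at 35.0 and 85 CPM (0.412, 0.219 to 0.750). Of 7 activation genes, Tnfrsf4 at 0.165 (0.106 to 0.247) and Tnfrsf18 (GITR) at 0.447 (0.299 to 0.663) were at least 2-fold lower. These are genes that regulatory T cells also use, and Foxp3 was at 21 UMIs in 5 cells with h219-LLG and 56 UMIs in 11 cells with the control antibody, a ratio of 0.292 (0.168 to 0.489). Without the Foxp3 T cells the ratio of Tnfrsf9 turned to 2.20, that of Ctla4 was 0.531, that of Tnfrsf4 0.332 and that of Tox 0.383. Resting T cells had ratios of 0.495 for Tnfrsf9, 0.582 for Ctla4 and 0.358 for Tnfrsf4, and 1.08 for Tox.

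Of 12 quiescence and homing genes, Tcf7, a factor of naive and stem-like T cells, was 2.25 times as high (1.61 to 3.20) with h219-LLG, and Btg1 at 0.438 (0.381 to 0.501) and the homing receptor Ccr7 at 0.473 (0.339 to 0.655) were lower. Without the Foxp3 T cells Tcf7 was at 1.27. Of the killing list, Ccl5 was at 2.00 (1.70 to 2.37) and the chemokine Ccl4 at 0.203 (0.0978 to 0.389), from 12 UMIs with h219-LLG and 46 with the control antibody, a fraction of 0.5 of one library's UMIs being in 1 cell. The early genes Jun at 0.452, Junb at 0.480 and the chaperone Hsph1 at 0.480 were the 3 of 8 stress genes at least 2-fold lower. In resting T cells Jun was at 1.87 and Hsph1 at 0.427. None of 4 interferon-stimulated, 4 MHC class II, 6 cycle entry and 3 LAIR1 signaling genes passed.

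Outside the lists the highest ratio was Hist1h2ap, a replication histone, at 950.9 CPM with h219-LLG and 195.0 CPM with the control antibody (4.88, 3.83 to 6.27), with a ratio of 2.09 (1.51 to 2.95) in resting T cells. Gm10073 at 3.11, Hist1h2ab at 3.02, Gm10076 at 2.86 and Hist1h2ae at 2.81 came next. In resting T cells Gm10073 was at 2.75, Gm10076 at 2.74 and Hist1h2ae at 1.09. The lowest were Gm26917 at 0.264, the chromatin organizer Satb1 at 0.268, Samsn1, an adaptor protein, at 0.273, the regulatory T cell factor Ikzf2 (Helios) at 0.278 and Sdf4 at 0.308. In resting T cells Samsn1 was at 0.281, Ikzf2 at 0.483, Satb1 at 0.714, Gm26917 at 0.842 and Sdf4 at 0.861. A single control cell supplied a fraction of 0.435 of the control UMIs of Gm26917, 0.350 of Sdf4 and 0.311 of Satb1. For Ikzf2 and Samsn1 the fractions were 0.198 and 0.125. Without the Foxp3 T cells Ikzf2 was at 0.0771 and Satb1 at 0.129.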

How the data were processed

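The authors counted UMIs per gene and barcode with Cell Ranger 5.0.0 on mm10 (the submitters' processing notes), and the deposited values are raw counts of 27998 genes with no normalization, 48834592 UMIs in 8807 barcodes with h219-LLG and 40339654 in 6133 with the control antibody. Barcodes with at least 500 UMIs, at least 200 genes and under 10% mitochondrial UMIs were kept. Trac, Knl1, Cd244a and 3 gamma-delta T cell genes were not among the symbols, so T cells rest on 5 markers and gamma-delta T cells were not called. The members and the gene lists were chosen with earlier results of these data known. A minimum of 30 cycling cells per library for gene comparisons was planned. No lineage reached it, and 20 was used, chosen after the counts were seen. CPM is a gene's UMIs per 1000000 UMIs summed over the cells. A gene was called at 2-fold in both libraries (cycling over resting), or at 2-fold with an interval that excludes 1 (h219-LLG over control). Genes were named by rule: the gate genes, lineage markers, the 2 highest and 2 lowest ratios of each list, and outside the lists the 5 highest and 5 lowest with at least 100 UMIs, without mitochondrial, ribosomal, immunoglobulin and T cell receptor genes and genes with over 0.5 of the higher group's UMIs in 1 cell. Subset members and other listed genes were named after their values were seen. Shares have exact binomial (Clopper-Pearson) and ratios binomial-split or log-scale 95% intervals. A share of 0 allows 3 counts of the total. Doublets were scored with 2 simulated doublets per cell, and the top 0.8% per 1000 barcodes were marked and kept. Clusters used 2000 variable genes without the listed cycle genes, 30 principal components, 20 nearest neighbors and Leiden resolution 1. Clustering ran in leidenalg 0.10.2 and igraph 0.11.9, and intervals in scipy 1.17.1, under Python 3.11.15. Scripts were tested on simulated data. Gate, depth, doublet, lineage, normalization and filter choices were varied.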

Additional observations from a re-analysis of the deposited data

Results flagged for a closer look

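Barcodes that the cell filter removed also met the cycling rule. With h219-LLG they were 6 of 1374 removed barcodes (0.437%, 0.160 to 0.948), and with the control antibody 1 of 526 (0.190%, 0.00481 to 1.05). The intervals overlap, and the signal was singled out because these barcodes enter none of the comparisons.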

How the results depend on the processing

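Of 194 values recomputed under the alternatives, 158 stayed within the 95% interval of the reported value (counts of genes: within 1.5 times), 34 moved further and 2 reversed. The intervals are wide: B over T cells in the control library, 0.0568 as reported, was 0.309 after thinning. No paired analysis was possible because each antibody has 1 library, and for the same reason no replicate could be left out. With at least 4 gate UMIs there were 65 and 41 cycling cells, with 1 UMI of either gene 599 and 478, after thinning 20 and 11, and without marked doublets 66 with h219-LLG. The T cell percent with h219-LLG was 43.9 with 1 UMI, 60 after thinning and 50 with lineages from clusters, and the mixed percent 21.0 and 25 with 1 UMI and after thinning (14.9 in the control library with 1 UMI). The T cell share ratio was 1.78 after thinning, and 1.27 with lineages also read from thinned cells. Phagocytes over T cells with h219-LLG was 1.45 with 1 UMI and reversed to 0.918 and 0.933 in the same thinned settings. B over T cells was 0.483 (control, 1 UMI) and 0.0764 (h219-LLG, clusters), and the Foxp3 ratio 3.06 and 3.35 with 1 UMI. Settings that left a class with 0 cycling cells gave no ratio.

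For cycling over resting T cells, rescaling by the median ratio gave 250 lower genes and moved the higher share of called genes to 66.4% (83.5% as reported). Leaving out the 50 most abundant genes gave 480 higher and 257 lower (65.1%), a minimum of 200 UMIs 385 higher, each gene without its highest cell 454 higher and 290 lower (61.0%), and deep resting cells alone 333 higher and 79 lower, of 4611 measured genes. For h219-LLG over control, a minimum of 20 UMIs gave 300 higher and 265 lower and of 200 UMIs 15 and 17, CD8 T cells 58 lower and T cells without Foxp3 191 higher. Rescaling and the sum without abundant genes gave 84 and 97 higher and 138 and 128 lower, and all measured G2 and M genes (5 to 36) were above 1 in these settings, with 3 to 27 of them at least 2-fold. T cell subsets, the thinned lineage reading and the plasmacytoid list without Tcf4 and Bst2 were added after the data were seen. Depth limits the shares: at 2000 UMIs per cell most cycling cells no longer pass the rule. With 1 library per antibody, the antibody and the library cannot be told apart, and intervals cover counting error only.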
